A study of Mus musculus with 22 samples.

Results

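The mitochondrial ribosomal protein genes were described in mouse lung metastases, as all array probe sets whose gene symbol starts with Mrpl (large subunit) or Mrps (small subunit) and a digit. There were 76 such genes of 19505 genes on the array, 48 of the large and 28 of the small subunit, each with 1 probe set. All 76 passed the filter on dim genes, and none lay below the median negative control probe set of its array in any array. The metastases grew from NMuMG cells, an epithelial line of the mouse mammary gland that carried ErbB2 in every group, after injection into the tail vein. The groups were PGC-1alpha cells in mice given phenformin (6 arrays), PGC-1alpha cells in mice given PBS (6 arrays), control cells labelled VC in mice given phenformin (5 arrays) and control cells in mice given PBS (5 arrays). Treatment lasted 1 week, and metastases were cut out by laser capture microdissection, so each array holds RNA of a captured piece of tissue and not of tumour cells alone. The labels name neither the strain and age of the mice, nor the phenformin dose, nor how many animals or cell clones stand behind the arrays, so p-values measure the spread between these samples, which may be technical in part.

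Mitochondrial ribosomes translate the few messenger RNAs of the mitochondrial genome, all of which encode subunits of the respiratory chain and ATP synthase. Their RNA is made in the mitochondrion, whereas every one of their proteins is encoded in the nucleus, made in the cytosol and imported. The large subunit joins amino acids and holds the exit tunnel, and the small subunit binds the messenger and reads its codons. PGC-1alpha is a transcriptional coactivator known for raising nuclear genes of mitochondrial biogenesis through factors such as NRF1, GABPA and ERRalpha (Esrra), and phenformin is a biguanide that inhibits respiratory complex I. The data bear on how the messengers of these ribosomal proteins differ between PGC-1alpha and control metastases, with and without the drug.

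Promoter windows from RefSeq (build GRCm38.p6, 250 bases before the start site to 50 after it) were matched by symbol for 67 of the 76 members. Some genes have several windows, as Mrpl2 has 3, and a gene was counted once if any of its windows held the motif. On either strand, the NRF1 motif, GCGCA, any base and GCGC, was found for 13 of the 67 members (19.4%), against 5.19% of all 27025 genes with a window. The GABPA letters CCGGAAGT were found for 12 members (17.9%), against 4.31%, and the YY1 letters AAGATGGC also for 12 (17.9%), against 3.19%. For the estrogen-related receptor, the letters AAGGTCA were found for 4 members (5.97%), against 5.38%. The longer TCAAGGTCA, which contains AAGGTCA, was found for 0, against 0.466%. These are matches of letters and not measured binding. The comparison set was every gene with a window, matched neither for expression nor for base content. Whether an excess is particular to these members was therefore not tested. The NRF1 motif was found for 10 of 42 large subunit members and 3 of 25 small subunit members with a window. Windows of 15 of the 17 members that passed the test under phenformin were given, those of Mrpl13 and Mrpl54 not. No window of these 15 held the NRF1 motif. Only Mrpl3 and Mrpl27 held the GABPA letters and only Mrps15 the AAGGTCA letters. Mrpl35, Mrpl37 and Mrpl42 held the YY1 letters, after the start site, and the rest held no motif. The 250 bases before the start site are shown for 4 of the 15, with capitals marking the motif. These are the pair with the GABPA letters, the one with the AAGGTCA letters and one of those without a motif, to set beside their values. They are Mrpl3 at chr9:105053018-105053267 on the plus strand, Mrpl27 at chr11:94653541-94653790 on the plus strand, Mrps15 at chr4:126046678-126046927 on the plus strand and Mrps33 at chr6:39810937-39811186 on the minus strand.
Mrpl3: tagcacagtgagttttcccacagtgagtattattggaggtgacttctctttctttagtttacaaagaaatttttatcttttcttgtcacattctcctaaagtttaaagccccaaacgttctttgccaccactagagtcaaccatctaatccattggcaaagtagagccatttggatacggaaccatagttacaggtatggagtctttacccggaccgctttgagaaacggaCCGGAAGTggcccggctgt
Mrpl27: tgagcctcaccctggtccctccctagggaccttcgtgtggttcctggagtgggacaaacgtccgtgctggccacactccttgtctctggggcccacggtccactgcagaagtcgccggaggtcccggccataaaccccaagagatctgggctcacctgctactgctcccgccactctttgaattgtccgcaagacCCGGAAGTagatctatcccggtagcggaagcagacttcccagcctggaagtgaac
Mrps15: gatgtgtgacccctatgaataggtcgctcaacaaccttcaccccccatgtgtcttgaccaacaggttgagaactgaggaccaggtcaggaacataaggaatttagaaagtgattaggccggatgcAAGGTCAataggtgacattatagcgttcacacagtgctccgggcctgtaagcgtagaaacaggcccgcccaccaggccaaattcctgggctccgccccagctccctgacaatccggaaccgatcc
Mrps33: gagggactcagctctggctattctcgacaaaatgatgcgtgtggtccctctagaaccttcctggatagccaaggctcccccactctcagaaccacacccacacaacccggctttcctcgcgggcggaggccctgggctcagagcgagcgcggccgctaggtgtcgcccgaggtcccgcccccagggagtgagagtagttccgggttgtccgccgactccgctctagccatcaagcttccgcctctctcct
The GABPA letters lie at bases -19 to -12 before the Mrpl3 start site and at -55 to -48 before that of Mrpl27, and the AAGGTCA letters at -125 to -119 before that of Mrps15.

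The values are log2 signals, so a difference of 1 is a doubling, and a level cannot be set against that of another gene's probe set. Array medians lay between 6.55 and 6.64 and negative control medians between 4.61 and 5.05. Ppargc1a, the gene that encodes PGC-1alpha, was higher in PGC-1alpha than in control metastases under PBS, at 8.90 ± 0.37 against 7.54 ± 0.60 (SD, n = 6 and 5; log2 difference 1.36, SE 0.31, limma adjusted p = 0.0198). Under phenformin it was 8.64 ± 0.79 in PGC-1alpha and 8.04 ± 0.39 in control metastases, with an adjusted p of 0.166. All 8 listed markers of the tumour epithelium were on the array and none lay below the negative control median in all arrays, with summed levels of 13.7 to 14.0, 13.8 to 13.9, 13.6 to 13.9 and 13.6 to 14.0 (log2) over the arrays of PGC-1alpha phenformin, PGC-1alpha PBS, control phenformin and control PBS. The same held for the 8 markers of alveolar type 2 cells, a cell of normal lung, with summed levels of 14.6 to 15.1, 14.6 to 14.9, 14.7 to 15.0 and 14.8 to 15.0 in the same order. Whether the tumour epithelium markers come from tumour cells alone was not tested, so their sums do not measure tumour content.

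In mice given phenformin, mitochondrial ribosomal protein messengers were lower in PGC-1alpha than in control metastases for 16 of the 76 members and higher for 1. Of the large subunit, 13 of 48 members fell and 1 rose, and of the small subunit 3 of 28 fell and 0 rose, at an adjusted p under 0.05 over all 15545 tested genes. Over all tested genes 21.1% passed, 11.1% lower and 10% higher, so the share of members that passed in either direction (22.4%) was near the background. The split by direction was not: 63 of the 76 members had a negative difference (82.9%), against 49.6% of all tested genes. Members varied together between arrays of a group, so their signs are not independent of each other. That holds for every count of signs below. At an unadjusted p under 0.05 there were 20 large and 10 small subunit members, against 37.1% of all tested genes. All PGC-1alpha arrays lay below all control arrays for 6 large subunit members and 1 small subunit member, against 4.94% of all tested genes, and above them for 0 members, against 6.07%. The median log2 difference was -0.25 over the large and -0.20 over the small subunit, against 0.00 over all tested genes. Most members lay in the brighter part of the array, where genes in general were lower: with all tested genes ranked by mean level into 5 classes of 3109 genes, the 3 brighter classes held 16, 29 and 28 members, with member medians of -0.28, -0.23 and -0.28 beside all-gene medians of -0.02, -0.14 and -0.13. In bulk tissue, fewer cells of a type and less RNA per cell cannot be told apart.

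The plot of line differences shows every member. Because the arrays had been normalised by the authors, by a method not given in the sources used here, a quantile normalisation of the deposited values was tried. It left 2 members higher and 5 lower (9.21%, against 15.7% of all tested genes in that fit). The medians were -0.12 over the large and -0.11 over the small subunit. Of the 76 differences 53 were negative, against 63 without it. With the arrays centred on their medians 0 members were higher and 23 lower (30.3%, against 21.3%), and 67 differences were negative. The share of negative signs over all tested genes was not computed for either fit. A score of normal lung markers as a covariate left 8 of 76 members lower, against 10.3% of all tested genes. A score of immune markers left 3 lower (3.95%, against 6.75%), with a small subunit median of -0.10. The shares of members and of all genes both fell with either score. Of the 17 members that passed, those still past the threshold were Mrpl3, Mrpl13 and Mrpl35 with the immune score, and these and Mrpl21, Mrpl41 and Mrpl42 with the lung score. With the quantile normalisation they were Mrpl3, Mrpl13, Mrpl42, Mrpl54, Mrps14 and Mrps15.

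**Figure D1:**
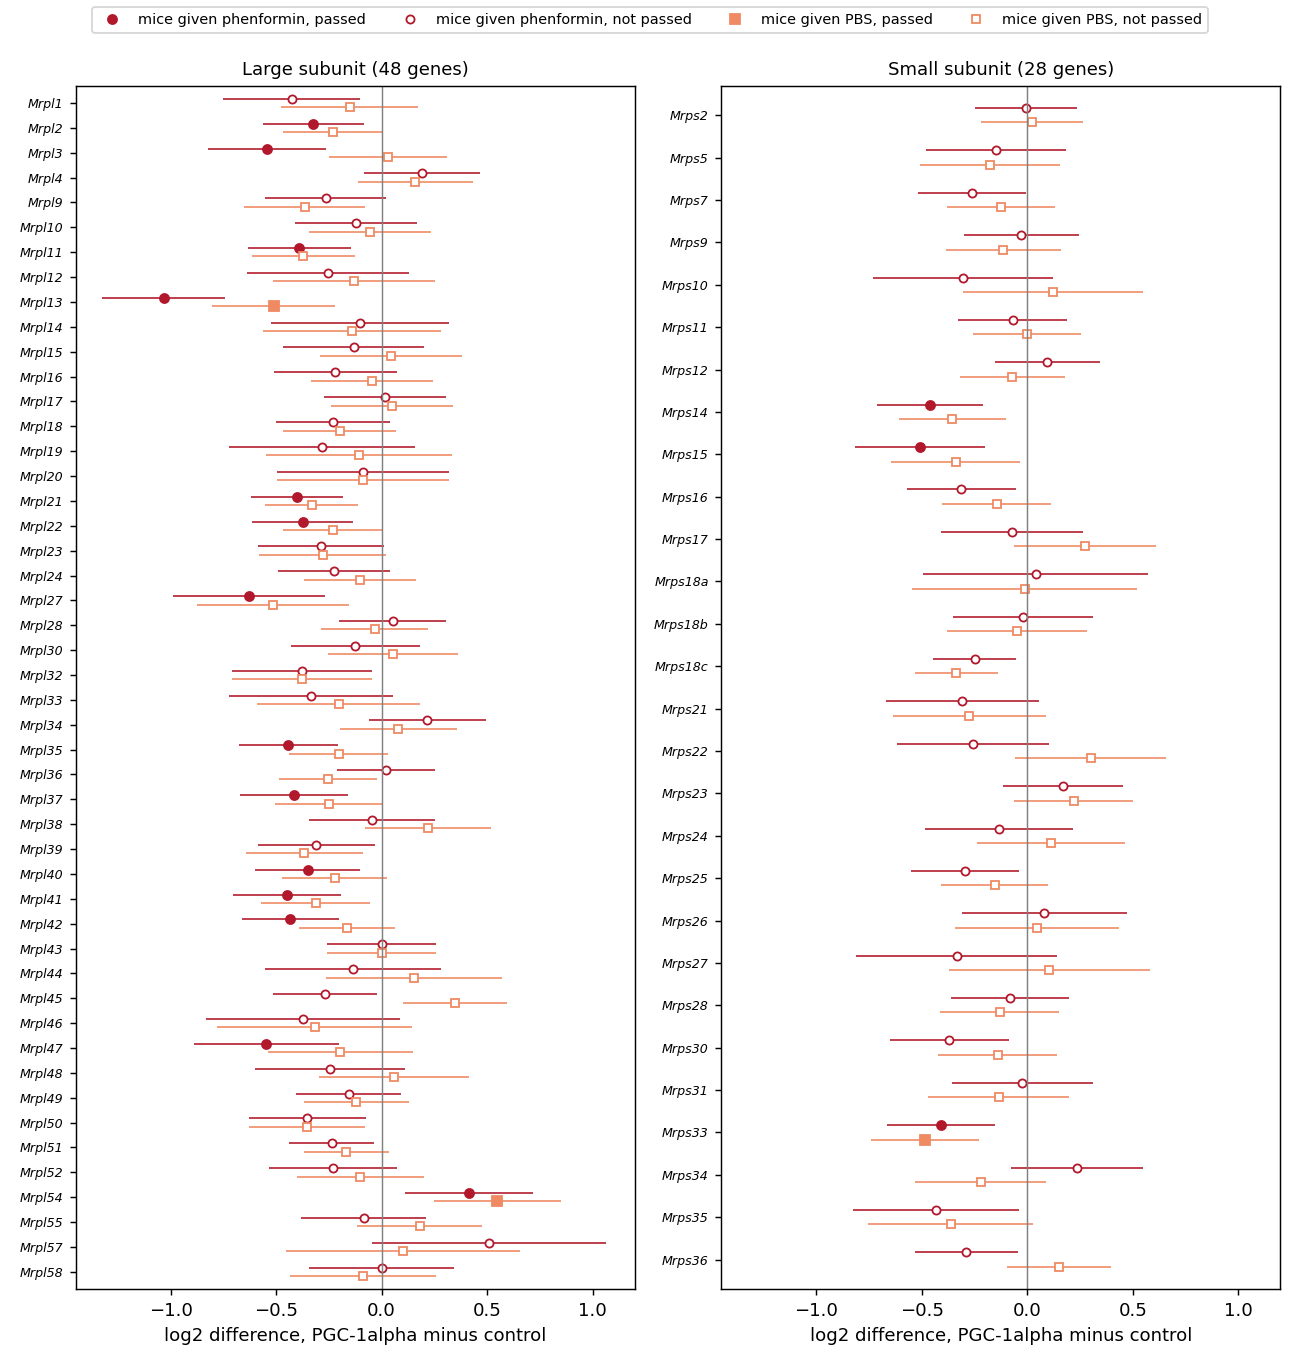
Log2 difference of PGC-1alpha minus control metastases (horizontal axis) for each of the 48 large subunit genes (left) and 28 small subunit genes (right), in mice given phenformin (circles) and PBS (squares). Lines are 95% confidence intervals from the fit and filled symbols have an adjusted p under 0.05. Most symbols lie left of 0; Mrpl13 under phenformin, at -1.03, lies farthest from it.

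Mrpl13, a large subunit protein with a bacterial counterpart, had the largest difference of any member. Its levels in PGC-1alpha metastases under phenformin had a lowest, median and highest value of 7.26, 7.87 and 7.94, against 8.64, 8.69, 8.80, 8.85 and 8.90 in the 5 control metastases under phenformin. Every PGC-1alpha array was below every control array. The fall was 1.03 on the log2 scale, or 2.05-fold (SE 0.14, limma adjusted p = 0.00028), and it passed without each array in turn and in every alternative tried.

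Among proteins at or near the site of peptide bond formation, Mrpl3 had levels of 7.67, 7.97 and 8.09 (lowest, median, highest) in PGC-1alpha metastases under phenformin, against 8.27, 8.36, 8.49, 8.53 and 8.62 in control metastases. The groups did not overlap, and the difference was -0.54 (SE 0.14, adjusted p = 0.00916), which also passed without each array and in every alternative. Mrpl27, whose bacterial counterpart in Escherichia coli reaches toward that site, had 8.74, 8.93 and 9.34, against 9.20, 9.36, 9.56, 9.83 and 10.12. Here the highest PGC-1alpha array lay above the lowest control array, and the difference was -0.63 (SE 0.17, adjusted p = 0.0156). Mrpl2, of the same region, averaged 7.78 ± 0.14 in PGC-1alpha and 8.10 ± 0.13 in control metastases (SD, n = 6 and 5; difference -0.32, adjusted p = 0.0481). Its groups did not overlap, but the call was lost without any one of 16 of the 22 arrays; it was kept without PGC-1alpha phenformin 1, control phenformin 1 or control PBS 1, 3, 4 or 5.

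Along the exit tunnel, Mrpl22 lines the wall and Mrpl47 sits near the exit. Mrpl47 had 8.05, 8.46 and 8.82 (lowest, median, highest) in PGC-1alpha metastases under phenformin, against 8.63, 8.74, 8.96, 9.24 and 9.35 in control metastases. The highest PGC-1alpha array overlapped the lower control arrays. The difference was -0.55 (SE 0.17, adjusted p = 0.0243), and it no longer passed without PGC-1alpha phenformin 3, control phenformin 3 or control phenformin 5 (-0.48 to -0.46). Mrpl22 averaged 8.50 ± 0.14 and 8.87 ± 0.23 (difference -0.37, adjusted p = 0.0263) with no overlap; the call was lost without PGC-1alpha phenformin 6, control phenformin 3 or control phenformin 5 (-0.33 to -0.31).

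At the stalk, where translation factors bind, Mrpl11 averaged 8.75 ± 0.15 in PGC-1alpha and 9.14 ± 0.16 in control metastases under phenformin (difference -0.39, adjusted p = 0.0242). Its groups did not overlap, and it no longer passed without PGC-1alpha phenformin 2 or 3 or control phenformin 1 (-0.37 to -0.34). The other stalk proteins did not pass: Mrpl10 differed by -0.12 (adjusted p = 0.554) and Mrpl12, which also binds the mitochondrial RNA polymerase, by -0.25 (adjusted p = 0.326). Mrpl12 levels under phenformin were 7.84 ± 0.18 in PGC-1alpha metastases and spread more widely, at 8.10 ± 0.46, in control metastases.

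Of further large subunit members, Mrpl35 differed by -0.44 (adjusted p = 0.0112), Mrpl41 by -0.45 (adjusted p = 0.0161) and Mrpl42 by -0.43 (adjusted p = 0.0107). Mrpl41 and Mrpl42 are proteins that bacterial ribosomes lack. These 3 calls held without each array in turn. Mrpl42 was 10.33 ± 0.27 in PGC-1alpha metastases and lay in a narrower range, at 10.76 ± 0.05, in control metastases. The remaining large subunit members that fell, named after their values were seen, were Mrpl21 (-0.40, adjusted p = 0.0125, no overlap), Mrpl37 (-0.41, adjusted p = 0.0229) and Mrpl40 (-0.35, adjusted p = 0.0425). Mrpl37 no longer passed without PGC-1alpha phenformin 2 or control phenformin 2 or 4 (-0.37 to -0.36), and Mrpl40 without PGC-1alpha phenformin 2, 3, 4 or 6 or control phenformin 1, 3, 4 or 5 (-0.37 to -0.29).

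Mrpl54, a protein that bacterial ribosomes lack, went the other way. It had 7.64, 7.97 and 8.20 (lowest, median, highest) in PGC-1alpha metastases under phenformin, against 7.02, 7.42, 7.58, 7.61 and 7.91 in control metastases. The groups overlapped, and the difference was 0.42 (SE 0.15, adjusted p = 0.0459). This call was lost without any one of 13 of the 22 arrays (0.29 to 0.44); it was kept without PGC-1alpha phenformin 4 or 5, PGC-1alpha PBS 3 or 4, control phenformin 3 or control PBS 1, 2, 3 or 5.

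**Figure D2:**
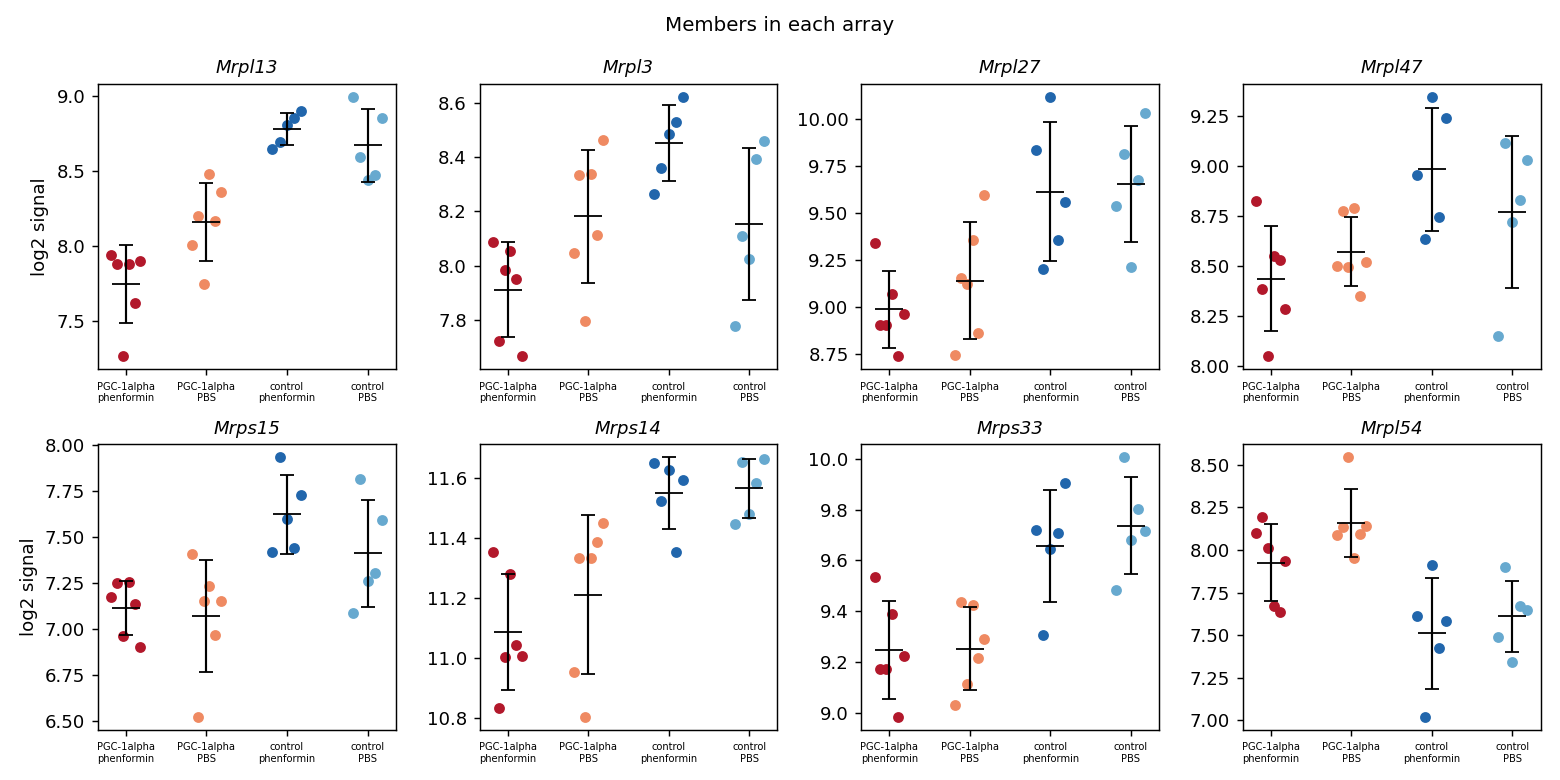
Log2 signal (vertical axis, its own range in each panel) of 8 members in each array, for PGC-1alpha phenformin, PGC-1alpha PBS, control phenformin and control PBS from left to right. Points are arrays, the long bars are group means and the whiskers are SD (n = 6, 6, 5 and 5). Mrpl13 is lowest in PGC-1alpha phenformin arrays, and Mrpl54 is the one panel in which PGC-1alpha means lie above control means under both treatments.

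In the small subunit under phenformin, Mrps15, a protein with a bacterial counterpart, had 6.91, 7.16 and 7.26 (lowest, median, highest) in PGC-1alpha metastases, against 7.42, 7.44, 7.60, 7.73 and 7.93 in control metastases. The groups did not overlap, and the difference was -0.51 (SE 0.15, adjusted p = 0.0200); without control phenformin 2 it was -0.43 and did not pass. Mrps14, which also has a bacterial counterpart, had 10.84, 11.03 and 11.35, against 11.35, 11.52, 11.59, 11.63 and 11.65. The highest PGC-1alpha array met the lowest control array, and the difference was -0.46 (SE 0.12, adjusted p = 0.0124) and passed without each array in turn. Mrps33, a protein that bacterial ribosomes lack, had 8.98, 9.20 and 9.54, against 9.31, 9.65, 9.71, 9.72 and 9.91. Its groups overlapped, and the difference of -0.41 (SE 0.12, adjusted p = 0.0234) did not pass without PGC-1alpha phenformin 5 or control phenformin 5 (-0.36 to -0.35). The small subunit count was 7 lower without PGC-1alpha phenformin 1 and 5 lower without control phenformin 4, and the large subunit count was 9 without PGC-1alpha phenformin 2 or 3 or control phenformin 5.

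Other small subunit members of known role did not pass under phenformin. Mrps12, a protein of the decoding centre, differed by 0.10 (95% interval -0.15 to 0.34), and Mrps2 by -0.01 (-0.25 to 0.24). The 3 Mrps18 paralogues, of which Mrps18a sits in the large subunit of the mammalian structure, differed by 0.04 for Mrps18a (-0.49 to 0.57), by -0.02 for Mrps18b (-0.35 to 0.31) and by -0.25 for Mrps18c (-0.45 to -0.05, adjusted p = 0.0633). Mrps30, also a large subunit protein by structure, differed by -0.37 (adjusted p = 0.0549). Mrps36, now known as a component of the oxoglutarate dehydrogenase complex and not of the ribosome, differed by -0.29 (adjusted p = 0.0832). Counting Mrps18a and Mrps30 with the large subunit and leaving Mrps36 out changed no count of members that passed. Mrps27, an RNA-binding protein of the small subunit, differed by -0.33 (-0.81 to 0.14). Some alternative fits passed Mrps18c, Mrps30, Mrps36 and Mrps27, with a smallest limma adjusted p of 0.0208, 0.0312, 0.0360 and 0.0423. Mrps12, Mrps2, Mrps18a and Mrps18b passed in no alternative.

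In mice given PBS, 3 of the 76 members differed between PGC-1alpha and control metastases, namely Mrpl13 and Mrps33, which were lower, and Mrpl54, which was higher. That is 1 higher and 1 lower of 48 in the large subunit and 1 lower of 28 in the small subunit, against a background of 2.93% of all tested genes (1.21% higher, 1.72% lower). The median log2 difference was -0.14 over the large and -0.12 over the small subunit, against 0.01 over all tested genes, and 54 of the 76 differences were negative (71.1%, against 49.1%). The small subunit median was -0.05 without control PBS 2, -0.07 without control PBS 5 and -0.02 with the immune score. The large subunit median was -0.04 with the lung score and -0.04 with the immune score. An unadjusted p under 0.05 was found for 12 large and 4 small subunit members, against 18% of all tested genes. The 3 brighter classes of genes had member medians of -0.15, -0.10 and -0.17, beside all-gene medians of 0.01, -0.01 and -0.03. With either marker score as a covariate 0 members passed, against 0.244% of all tested genes with the lung score and 0.56% with the immune score, and with only the 2 groups compared in the fit 0 passed, against 1.52%. The line differences under phenformin and under PBS come from different arrays of the same lines. Of the 76 members, 48 were lower in PGC-1alpha metastases under both treatments, 7 were higher under both and 21 had opposite signs. The matching shares of all tested genes were not computed, so these counts have no background. All 3 members that passed under PBS also passed, in the same direction, under phenformin. These calls are not independent, since all arrays were fitted together and the tests of a gene share its variance estimate.

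Mrps33 in PGC-1alpha metastases under PBS had 9.03, 9.25 and 9.44 (lowest, median, highest), against 9.48, 9.68, 9.72, 9.80 and 10.01 in control metastases. The groups did not overlap (1.61% of all tested genes were lower with no overlap), and the difference was -0.49 (SE 0.12, adjusted p = 0.0359). It no longer passed without PGC-1alpha PBS 1, 3 or 5 or control PBS 2, 4 or 5 (-0.49 to -0.42). Mrpl13 had 7.74, 8.18 and 8.48, against 8.44, 8.47, 8.59, 8.85 and 9.0. The highest PGC-1alpha array lay just above the lowest control arrays, and the difference was -0.51 (SE 0.14, adjusted p = 0.0491). That call was lost without any one of 18 of the 22 arrays (-0.56 to -0.43), and kept without PGC-1alpha phenformin 3, PGC-1alpha PBS 4 or 6 or control PBS 3.

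Mrpl54 in PGC-1alpha metastases under PBS had 7.95, 8.12 and 8.54 (lowest, median, highest), against 7.34, 7.49, 7.65, 7.67 and 7.90 in control metastases. All PGC-1alpha arrays were above all control arrays, as for 1.65% of all tested genes, and the difference was 0.55 (SE 0.15, adjusted p = 0.0424). The call was lost without any one of 10 arrays, namely PGC-1alpha phenformin 6, PGC-1alpha PBS 1, 2, 3, 5 or 6, or control PBS 1, 3, 4 or 5 (0.47 to 0.56). Without single arrays the count of members that passed under PBS ran between 0 and 2 in each subunit, and the share of all tested genes between 1.23% and 3.16%. In the small subunit it was 0 without the 6 arrays named for Mrps33 and 2 without PGC-1alpha phenformin 1. In the large subunit it was 0 without PGC-1alpha phenformin 6, PGC-1alpha PBS 1, 2, 3 or 5 or control PBS 4 or 5; it was 2 without PGC-1alpha phenformin 3 or PGC-1alpha PBS 4, and 1 without any other array. Mrps18c, of the small subunit, had no overlap either, at 9.45 ± 0.07 in PGC-1alpha and 9.78 ± 0.10 in control metastases, with an adjusted p of 0.0555.

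Phenformin against PBS changed no member past the threshold within either line, and over all tested genes the background was also 0%. In PGC-1alpha metastases, limma passed 0 of 48 large and 0 of 28 small subunit members (smallest adjusted p 0.957). At an unadjusted p under 0.05 there were 3 large and 0 small subunit members, against 4.34% of all tested genes. The signs were uneven: 46 of 48 large and 26 of 28 small subunit differences were negative, against 53.1% of all tested genes. These signs are not independent, since members varied together between arrays. The median log2 difference was -0.12 over each subunit, against -0.01 over all genes. In the 3 brighter classes, with 16, 29 and 28 members, member medians were -0.13, -0.13 and -0.12 beside all-gene medians of -0.01, -0.06 and -0.06. Under the quantile normalisation of the deposited values 60 of the 76 differences were negative, against 72 without it. No member had groups that did not overlap, against 0.148% of all tested genes lower and 0.0708% higher. The largest difference was that of Mrpl13, at -0.41 (SE 0.14, unadjusted p = 0.00545, adjusted p = 0.957), followed by Mrpl19 at -0.34 and Mrps22 at -0.33.

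In control metastases, limma likewise passed 0 members (smallest adjusted p 0.312), and 4 large and 2 small subunit members had an unadjusted p under 0.05, against 9.64% of all tested genes. Here 28 of 48 large and 18 of 28 small subunit differences were negative, against 51.6%, with medians of -0.04 and -0.06. These medians had no stable sign: that of the large subunit was 0.02 without control phenformin 2, control PBS 2 or control PBS 5, and that of the small subunit was -0.0011 without control phenformin 2 and 0.0011 without control PBS 2. Without control PBS 1 they were -0.09 and -0.11. Groups overlapped for every member, and 0.746% of all tested genes were lower and 0.534% higher with no overlap. Mrps34, a small subunit protein whose loss in humans causes a mitochondrial disease, had 7.24, 7.32, 7.48, 7.91 and 8.15 under phenformin, against 7.92, 7.99, 8.17, 8.19 and 8.29 under PBS. Its groups overlapped through the highest phenformin array alone, with a difference of -0.49 (SE 0.16, adjusted p = 0.312). Mrpl57, a protein that bacterial ribosomes lack, differed by -0.42 (SE 0.28; -0.67 to -0.20 with single arrays left out, the smallest without control phenformin 4). Mrpl45 differed by 0.39 (95% interval 0.13 to 0.65, adjusted p = 0.312).

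**Figure D3:**
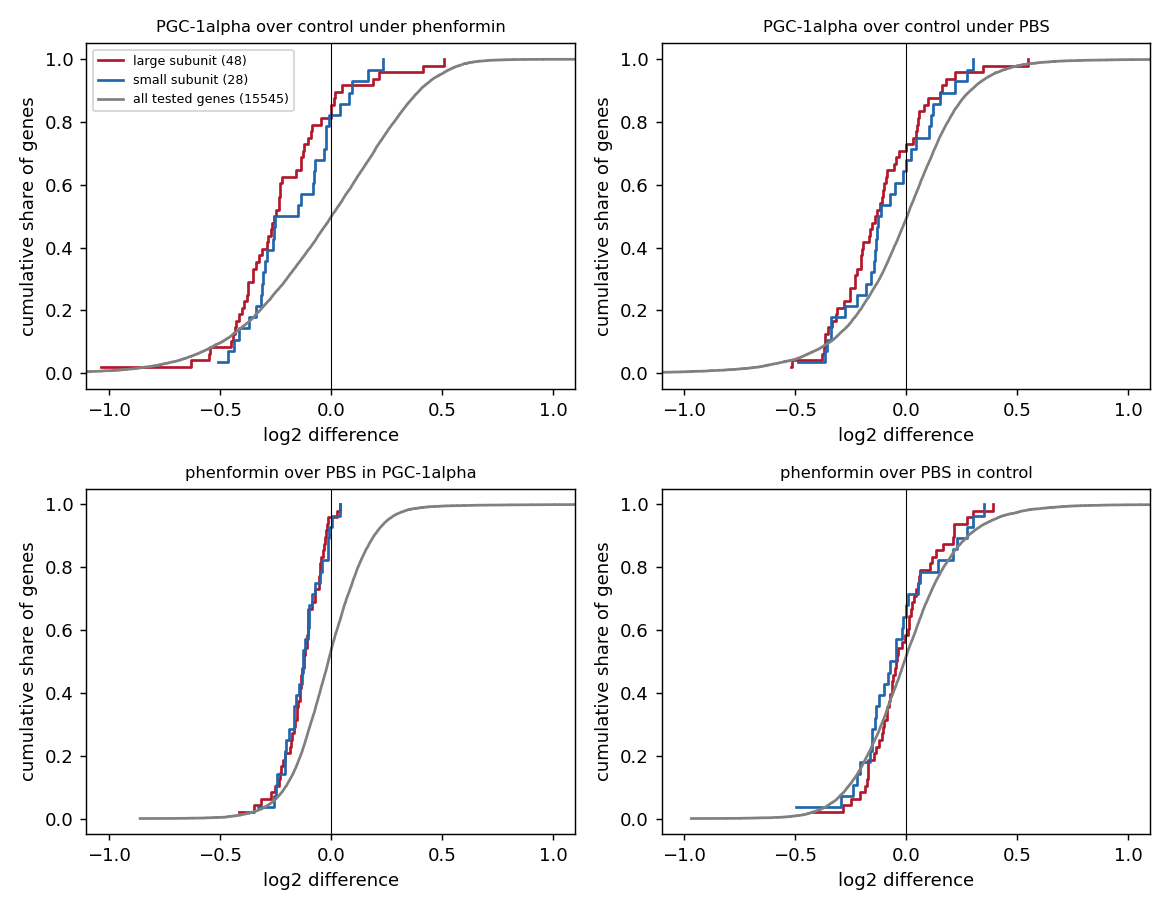
Cumulative share of genes (vertical axis) by log2 difference (horizontal axis) for the large subunit (red), the small subunit (blue) and all tested genes (grey), in 4 comparisons. Both subunit curves lie left of the grey curve over most of their range in both line comparisons and in the phenformin comparison within PGC-1alpha metastases, and close to it in control metastases.

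The interaction asks whether the difference between lines depends on treatment. With limma, 0 of 48 large and 0 of 28 small subunit members passed, as did 0% of all tested genes. At an unadjusted p under 0.05 there were 3 of each subunit, against 11.1% of all tested genes. So for no member was the difference between lines shown to differ between mice given phenformin and mice given PBS, although more members passed under phenformin. The median interaction was -0.12 over the large and -0.06 over the small subunit, and 36 of 48 and 17 of 28 were negative, against 51.3% of all tested genes. In the 3 brighter classes the member medians of -0.11, -0.13 and -0.05 stood beside all-gene medians of -0.02, -0.11 and -0.09. With the quantile normalisation of the deposited values 43 of the 76 were negative, and the medians were -0.03 over the large and 0.01 over the small subunit. With single arrays left out, the large subunit median was smallest, at -0.02, without control PBS 1, and the small subunit median ran from -0.12 without PGC-1alpha phenformin 1 to -0.02 without control PBS 1.

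Mrpl45, which anchors the human mitochondrial ribosome to the inner membrane, had the largest interaction, at -0.62 (SE 0.17, unadjusted p = 0.00129, adjusted p = 0.241). Its levels under phenformin were 8.70, 8.87 and 9.09 (lowest, median, highest) in PGC-1alpha metastases, against 9.0, 9.02, 9.24, 9.27 and 9.28 in control metastases. Under PBS they were 8.86, 9.17 and 9.27 in PGC-1alpha metastases, against 8.42, 8.70, 8.71, 8.85 and 9.18 in control metastases. The 2 line differences had opposite signs, -0.27 under phenformin and 0.35 under PBS, and neither passed (adjusted p = 0.104 and 0.114). Mrpl3 had an interaction of -0.57 (adjusted p = 0.333) with levels of 8.18 ± 0.24 in PGC-1alpha and 8.15 ± 0.28 in control metastases under PBS, and Mrps22 had one of -0.56 (adjusted p = 0.404).

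Averaged over the members of a subunit in each array, the large subunit had a mean level of 8.45 ± 0.10 in PGC-1alpha metastases under phenformin (range 8.35 to 8.63), 8.58 ± 0.08 in PGC-1alpha under PBS (8.50 to 8.67), 8.67 ± 0.17 in control under phenformin (8.45 to 8.87) and 8.69 ± 0.16 in control under PBS (8.47 to 8.86). The small subunit had 8.11 ± 0.09 (8.04 to 8.28), 8.23 ± 0.06 (8.15 to 8.30), 8.28 ± 0.17 (8.02 to 8.44) and 8.32 ± 0.13 (8.12 to 8.47) in the same order. All groups overlapped. In the large subunit, 5 of the 6 PGC-1alpha phenformin arrays lay below the lowest control array, and the remaining one, replicate 1, was at 8.63. In the small subunit the lowest array of all was a control array under phenformin.

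**Figure D4:**
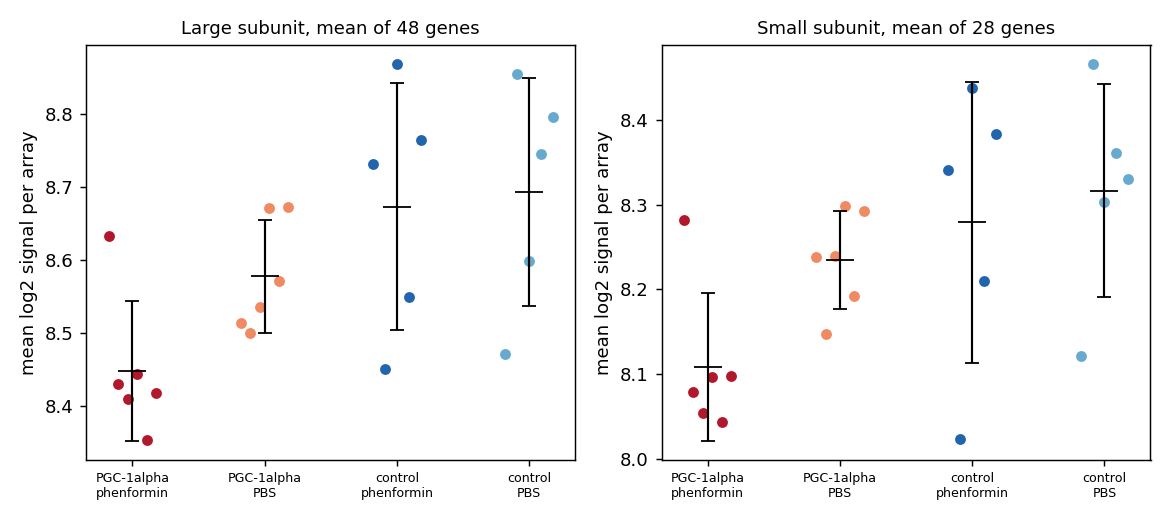
Mean log2 signal over the 48 large subunit genes (left) and the 28 small subunit genes (right) in each array (vertical axis, not from 0). Points are arrays, bars are group means and whiskers are SD (n = 6, 6, 5 and 5 from left to right); 5 of 6 PGC-1alpha phenformin arrays lie between 8.35 and 8.44 in the large subunit, and control arrays spread from 8.45 to 8.87.

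Members of known role that differed little included Mrpl44, an RNase-like large subunit protein, which differed by -0.14 under phenformin (95% interval -0.55 to 0.28) and 0.15 under PBS (-0.26 to 0.57). Mrpl51, at a mean of 10.73 over all arrays, differed by -0.24 under phenformin (adjusted p = 0.0843) and -0.17 under PBS (adjusted p = 0.381). Mrpl43, at a mean of 5.33, was close to the negative controls, and its differences were 0.00 under both treatments (-0.26 to 0.26). Mrps5, a small subunit protein at a mean of 6.80, differed by -0.15 under phenformin (-0.48 to 0.18) and -0.18 under PBS (-0.51 to 0.15).

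Other genes of mitochondrial translation gave mixed counts. Of 4 tested mitochondrial ribosomal proteins with other symbols, 0 passed in either line comparison. Of 24 assembly factors, 2 were higher and 1 lower in PGC-1alpha metastases under phenformin, and 0 passed under PBS, which is 12.5% under phenformin, below the 21.1% of all tested genes. Mrm1, which methylates the ribosomal RNA, was 7.03 ± 0.15 in PGC-1alpha and 6.46 ± 0.13 in control metastases (SD, n = 6 and 5; difference 0.58, adjusted p = 0.0057). Rcc1l, which takes part in assembly, was 9.46 ± 0.21 and 8.92 ± 0.17 (0.55, adjusted p = 0.00856), and Fastkd2, an RNA-binding protein, 6.63 ± 0.22 and 7.44 ± 0.44 (-0.80, adjusted p = 0.0113).

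Of 15 tested translation factors, 5 were lower and 1 higher in PGC-1alpha metastases under phenformin (40%, against 21.1% of all tested genes), and 2 were lower under PBS (13.3%, against 2.93%). The release factor Mtrf1 was 6.02 ± 0.27 in PGC-1alpha and 6.90 ± 0.35 in control metastases under phenformin (-0.88, adjusted p = 0.00531), and 5.81 ± 0.38 and 6.54 ± 0.37 under PBS (-0.73, adjusted p = 0.0423). Its relative Mtrf1l, which ends translation at the standard stop codons, was 7.01 ± 0.41 and 7.85 ± 0.17 under phenformin (-0.84, adjusted p = 0.00477), and 7.20 ± 0.29 and 7.92 ± 0.35 under PBS (-0.72, adjusted p = 0.0372). Lrpprc, which stabilises mitochondrial messengers, differed by -0.62 (adjusted p = 0.0126) and the recycling factor Mrrf by -0.60 (adjusted p = 0.0490) under phenformin. Slirp, the partner of Lrpprc (-0.34), and the elongation factor Tsfm (0.46, the one that rose) are named after their values were seen. Of 16 tested mitochondrial tRNA synthetases, 4 were lower and 1 higher under phenformin (31.2%, against 21.1%), and 1, Yars2, was lower under PBS (-0.65, adjusted p = 0.0266; 6.25%, against 2.93%). Those lower under phenformin were Mars2 (-0.63), Yars2 (-0.62), Fars2 (-0.49) and Ears2 (-0.44); Sars2, named after its value was seen, was higher (0.42). None of these lists had a gene that passed for phenformin against PBS or for the interaction.

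Of 46 tested markers of 7 cell types other than the tumour epithelium, 9 were lower and 1 higher in PGC-1alpha metastases under phenformin. The share in either direction, 21.7%, was near the 21.1% of all tested genes. The split by direction was not, since over all tested genes 11.1% were lower and 10% higher. It leaned toward lower, as it did for the ribosomal members. Under PBS 6 were lower and 1 higher (15.2%, against 2.93%). Of the 8 tumour epithelium markers 1 was lower under phenformin and 0 passed under PBS. Of 6 tested neutrophil markers 4 were lower under each treatment. Their summed levels (log2) were 10.2 to 10.8 in PGC-1alpha and 10.98 to 11.48 in control arrays under phenformin. Under PBS they were 10.4 to 11.2 in PGC-1alpha and 11.4 to 11.7 in control arrays. Of 6 tested macrophage markers 5 had a positive difference under PBS, and 1 of them passed. Under phenformin 2 of the 6 were positive and 0 passed. The immune score pooled the neutrophil, macrophage, and T and NK lists. Endothelial markers had summed levels of 11.2 to 12.1 in PGC-1alpha and 11.9 to 12.3 in control arrays under phenformin, and 11.02 to 12.07 and 11.63 to 12.75 under PBS. Of 5 tested club and ciliated cell markers 0 passed in either line comparison. All 5 were lower in PGC-1alpha metastases under PBS (median difference -1.98), and 3 under phenformin (median -0.32). Their mean level was 6.63 ± 1.08 in PGC-1alpha and 8.57 ± 1.22 in control metastases under PBS (SD). Under phenformin it was 8.18 ± 1.75 and 8.36 ± 1.47. No marker of any list lay below the negative control median in all arrays. The part of these cells in the differences of ribosomal protein messengers was not tested beyond the 2 covariate fits given above.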

How the data were processed

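Expression was measured with 1 array per sample on RNA from laser-captured lung metastases, with 10 ng of RNA amplified per array, per the labels' protocols. The values are the authors' deposited log2 signals, normalised with oligo per the submitters' processing notes; its version, the background correction, the normalisation and the genome build are not given in the sources used here. A second deposited table, of 22 columns whose names match no sample, was not used. Of 28815 probe sets 22206 were not controls, and 19572 of these had 1 symbol in the platform annotation. For 55 genes with several probe sets that of the highest mean was kept, which left 19505 genes; each member had 1.

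The test took in genes whose signal exceeded the 25th percentile of the array in 5 or more arrays (15545 genes). All 22 arrays were fitted together with limma 3.58.1 (R 4.3.3; lmFit, eBayes; 18 residual and 5.67 prior degrees of freedom), with two-sided p-values and Benjamini-Hochberg adjustment over all tested genes. Passed, rose and fell mean an adjusted p under 0.05. The code was tested on simulated data. Array number limits the precision. Plots come from matplotlib 3.10.9 under Python 3.11.15.

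The members, gene lists and tests were chosen with earlier results of these data known. Named members are, per comparison, those that passed, up to 10 by size, filled up to 3 where fewer passed, the member of highest and lowest mean of each subunit, and members of known role; of other lists, up to 4 that passed. Alternatives were other filters on dim genes, array centring, quantile normalisation, the mean of all probe sets, fits of only the groups compared, array weights, scores of normal lung or immune markers as covariates, the sample number as a block and leaving out each array. Deviations from the group mean had a median r of 0.006 between samples of equal number (-0.19 to 0.31 over 31 pairs). Between samples of different number it was 0.002 (-0.21 to 0.19 over 150 pairs). The labels name no batch, so the main fit paired nothing.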

Additional observations from a re-analysis of the deposited data

Results flagged for a closer look

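Over 36 named members and the 2 subunit means, 152 groups of arrays were searched for an array far from the rest by Dixon's test, and 7 were found; chance gives about 1 in 20 groups. Mrpl54 was 8.54 in PGC-1alpha PBS 3, with the next array of that group at 8.14. Mrps5 was 7.62 in control PBS 5 (next 6.97), and Mrps18a was 7.70 in control PBS 1 (next 9.04). Mrps27 was 8.60 in control phenformin 4 (next 8.19) and 6.41 in control PBS 5 (next 8.09). The mean over both subunits stood apart in PGC-1alpha phenformin 1, at 8.63 for the large subunit (next 8.44) and 8.28 for the small subunit (next 8.10), above the other arrays of its group.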

How the results depend on the processing

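No result changed its direction while past the threshold. Under PBS, the large subunit count of 2 was 0 without a filter on dim genes, with only the groups compared, and with the normal lung or immune score as a covariate, and 1 with arrays centred, with quantile normalisation, with array weights and with the replicate block; the small subunit count of 1 was 2 with a filter at the array median and 0 with only the groups compared, either score or the replicate block. Under phenformin, the large subunit count of 14 was 5 with quantile normalisation, 8 with the lung score and 3 with the immune score, and the small subunit count of 3 was 7 with arrays centred, 5 with array weights and 0 with either score. With single arrays left out, the large subunit count was 0 to 2 under PBS and 9 to 15 under phenformin, and the small subunit count 0 to 2 and 2 to 7. In the same fits the share of all tested genes that passed ran from 1.23% to 3.16% under PBS and from 14.1% to 23.3% under phenformin. For phenformin against PBS and the interaction the member counts were 0 throughout. Of the 22 arrays, 9 correlated best with an array of their own number. Of the pairs compared, 31 had equal and 150 different numbers, with a highest r of 0.31 and 0.19. A chance level for the 9 was not computed, and whether samples of equal number share anything was not tested. The replicate block left 15 members lower and 0 higher under phenformin (19.7%, against 20.7% of all tested genes). Of all genes that passed under phenformin 47.5% were higher, against 33.5% with arrays centred and 55% with quantile normalisation. Of the 17 members that passed under phenformin, 8 passed without each array in turn, and 2, Mrpl13 and Mrpl3, in every alternative. Over the named members and Ppargc1a 3172 alternative values kept their side of the threshold, 152 lost it, 17 gained it and 115 changed sign without being past it. Most of the values that kept their side belong to results not past the threshold in the main fit. The values that lost it include some of the Ppargc1a call under PBS. The cause of these changes was not tested. Members near the negative controls, such as Mrpl43, are limited by signal over background.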

Other observations

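Ribosomal protein messengers varied together between arrays of the same group. Taking each array's deviation from its group mean over the 22 arrays, the median correlation between pairs of members was 0.23 within the large subunit, 0.17 within the small subunit and 0.22 between the subunits, against 0.00 over all pairs of tested genes. Mrpl33 (r = 0.90), Mrps21 (r = 0.88) and Mrpl20 (r = 0.85) followed the mean of the other members most closely. Mrpl37 (r = -0.42), Mrpl39 (r = -0.32) and Mrps27 (r = -0.28) ran against it. These genes were named by their rank after the values were seen, and the correlations are descriptions, since all members share the array's scaling and the tissue that was captured.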
